A study of Mus musculus with 8 samples.

Results

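The subject here is a group of 10 ion channel genes measured in microglia, the macrophages that live in brain and spinal cord tissue: the potassium channels Kcnk13, Kcnk6, Kcnj2, Kcna3 and Kcnn4, the transient receptor potential (TRP) channels Trpv2, Trpm2 and Trpm7, and the volume-regulated anion channel subunits Lrrc8a and Lrrc8d. They were chosen by name and found by Ensembl identifier among the 54532 genes of the count table, and all 10 were present and passed the filter on low counts. RNA was sequenced from microglia sorted out of the spinal cords of 8 female mice, 1 library each: 4 came from the line labelled Cd11b-P2X4mCherryIN knock-in (KI, mice 513, 526, 528 and 549) and 4 were wild type (WT, mice 503, 504, 506 and 527). The sort kept viable CD11b+ cells with little CD45 and no Ly6C on their surface. The label joins P2X4, a cation channel opened by extracellular ATP, with CD11b, a myeloid surface protein, and the fluorescent protein mCherry. The labels used here give no strain, age, treatment or batch, and do not state how the allele is expressed.

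Background potassium channels of the K2P family, each subunit of which carries a pair of pore loops, set the resting membrane potential of many cells. In microglia the K2P channel THIK-1, made by Kcnk13, is the main resting potassium conductance described in brain slices, where it is enhanced through the ADP receptor P2Y12 and takes part in process surveillance and interleukin 1β release. Inward rectifiers (Kir), voltage-gated (Kv) and calcium-activated (KCa) channels have been described mainly in cultured or activated microglia. Potassium loss is a known trigger of the NLRP3 inflammasome. TRP channels of the TRPV and TRPM groups admit cations, in most of them calcium too. LRRC8 proteins form the anion channel through which swollen cells lose chloride and organic solutes, and every functional channel contains LRRC8A. Transcript levels measure neither channel protein nor current.

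The potassium channels share the selectivity filter, the short stretch of the pore loop that lets potassium pass. The coding sequence around it is shown for Kcnk13, Kcnk6, Kcnj2 and Kcna3, 10 codons at each site, because it is what makes them potassium channels and because a K2P gene such as Kcnk6 carries a pair of such sites. The sequences come from GENCODE M21 transcripts (GRCm38, the assembly of mm10), are written 5′ to 3′ on the coding strand, and carry in capitals the codons for glycine, then tyrosine, phenylalanine or leucine, then glycine.
Kcnk13 (plus strand, chr12:99966265-99966280 joined to chr12:100061002-100061015): gtggtttctaccataGGGTTTGGGatgaca
Kcnk6, the first site (minus strand, chr7:29232162-29232177 joined to chr7:29225854-29225867): cttgtcaccaccgtgGGCTATGGCtacacg
Kcnk6, the second site (minus strand, chr7:29225530-29225559): tctctgtccaccattGGCCTAGGGgactac
Kcnj2 (plus strand, chr11:111072198-111072227): acccagacaaccattGGCTATGGTttcagg
Kcna3 (plus strand, chr3:107037602-107037631): accatgacaactgttGGTTATGGTgatatg
In Kcnk13 and Kcnk6 the first site is split by an intron after base 16 of the 30 shown, inside the first glycine codon. The intron is 94721 bases long in Kcnk13 and 6294 in Kcnk6. The search ran in frame over the longest complete coding sequence of each gene for a threonine codon, any codon and the 3 capitalised codons. It matched 381 of 21747 protein-coding genes (1.75%) and 66 of the 77 potassium channel pore genes listed here (85.7%). A match describes the letters and is not a test of function.

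Each library held 45167483 to 54049801 reads on genes in KI and 47051510 to 53678232 in WT, so that 3 reads, taken as the upper limit behind a count of 0, equal 0.0555 to 0.0664 CPM (reads of a gene scaled to the size of its library). These limits cover counting error only. Levels are CPM scaled by the trimmed mean of M values (TMM), and levels of different genes are compared only as CPM per kilobase of exon. The 10 microglial marker genes, P2ry12 and Tmem119 among them, were all detected and summed to 28500.1 to 32271 CPM in KI and 30108 to 34306 in WT. Neuronal markers summed to 3.97 to 35.5 CPM in KI and 8.37 to 22.7 in WT, and markers of monocytes and neutrophils to 6.74 to 36.6 CPM in KI and 5.75 to 11.6 in WT. Astrocyte markers summed to 323 to 392 CPM in KI and 327 to 399 in WT, most of it Slc1a3 (340 ± 27.2 CPM in KI and 331 ± 31.7 in WT), while Gfap averaged 5.80 ± 2.95 CPM in KI and 4.996 ± 2.497 in WT. Oligodendrocyte markers summed to 149.8 to 282 CPM in KI and 168 to 288 in WT, border macrophage markers to 5.16 to 25.3 in KI and 7.64 to 11.2 in WT, and erythroid markers to 96.6 to 307 in KI and 160.04 to 524 in WT. Endothelial and mural markers summed to 48.7 to 52.4 CPM in KI and 40.7 to 56.9 in WT. Most of it was Pecam1 (41.5 ± 3.54 CPM in KI and 41.0 ± 8.39 in WT). Kdr averaged 4.83 ± 3.12 CPM in KI and 5.10 ± 2.52 in WT, and Cldn5 0.264 ± 0.364 in KI and 0.0215 ± 0.0429 in WT. Lymphocyte markers summed to 0.278 to 3.91 CPM in KI and 0.584 to 2.64 in WT. P2rx4, the gene of P2X4, was read at 785 to 938 CPM in KI and 741 to 842 in WT. Whole-gene counts cannot separate an inserted P2X4 sequence from the mouse's own gene, so this level is no check of genotype. In sorted cells measured in bulk, fewer cells that express a gene and less RNA per cell cannot be told apart.

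Among the potassium channels, Kcnk13 was the most abundant transcript in every library. Kcnk13 (ENSMUSG00000045404; chromosome 12 of mm10, 99964499 to 100062682, plus strand) reached 136, 155, 156 and 132 CPM in KI 513, 526, 528 and 549. In WT 503, 504, 506 and 527 it stood at 150, 183, 136 and 157 CPM. WT 504 was the highest library and KI 549 the lowest, and the groups overlapped. The means were 145 ± 12.6 CPM in KI and 157 ± 20.1 in WT (SD, n = 4 each). Per kilobase it averaged 48.4 CPM over the 8 libraries, above 93.5% of the 17291 tested genes.

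Kcnk6 encodes TWIK-2, the other K2P channel with more than a few CPM, known in macrophages as a route of potassium efflux that precedes NLRP3 activation. Kcnk6 (chromosome 7, 29221926 to 29232515, minus strand) had 91.3, 63.0, 74.5 and 81.4 CPM in the KI libraries, against 91.1, 70.9, 75.6 and 61.4 CPM in the WT libraries, in the same order of mice. Each group had 1 library near 91 CPM, and the ranges almost coincided. Kcnk13 exceeded Kcnk6 by 2.65-fold per kilobase on average, in 8 of 8 libraries, with single libraries from 1.99- to 3.45-fold (exact sign-flip permutation p = 0.00781, the smallest that 8 libraries allow).

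Kcnj2 encodes the strong inward rectifier Kir2.1, which holds the membrane near the potassium equilibrium. Kcnj2 (chromosome 11, 111066164 to 111076821, plus strand) was at 38.7, 31.7, 44.7 and 48.9 CPM in the KI libraries and at 42.5, 33.3, 46.9 and 33.9 CPM in the WT libraries. Its lowest values, in KI 526 and WT 504, fell in the libraries that were also lowest in their group for 24 immediate early and stress genes. Enzymatic and mechanical tissue dissociation can induce such genes. Their levels summed to 6018 CPM in KI 526 (12376 to 14524 in the other KI libraries) and 5932 in WT 504 (9571 to 13958 in the other WT libraries). WT 527, at 33.9 CPM for Kcnj2, had 11019 CPM on that list. The part of the dissociation response in the Kcnj2 level was not tested.

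Kcna3 and Kcnn4, the channels most often recorded in cultured or activated microglia, were low. Kcna3, the voltage-gated channel Kv1.3 (chromosome 3, 107036169 to 107038070, plus strand), had 2.90, 0.452, 3.84 and 3.73 CPM in the KI libraries, against 2.36, 4.12, 3.41 and 3.37 CPM in the WT libraries. KI 526 stood far below the rest, with 24 reads where the other 7 libraries had 129 to 201. The gene model of Kcna3 is 1 exon of 1902 bases, of which 1584 are coding. An antisense model, Gm27008, spans it on the opposite strand without sharing an exonic base and held 2626 reads over the 8 libraries, 221% of those of Kcna3. The counting used no strand, so antisense RNA that crosses the Kcna3 exon would be counted as Kcna3, and its part in the Kcna3 level was not tested.

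Kcnn4 encodes the calcium-activated channel KCa3.1. Kcnn4 (chromosome 7, 24370263 to 24386690, plus strand) had 3.49, 4.97, 5.75 and 13.8 CPM in the KI libraries and 5.71, 7.32, 10.6 and 9.62 CPM in the WT libraries. KI 549 was the highest of all 8 and KI 513 the lowest, so the KI range enclosed the WT range. Kcnk13 exceeded Kcna3 by 35.2-fold and Kcnn4 by 35.1-fold per kilobase on average, above both in 8 of 8 libraries (exact sign-flip permutation p = 0.00781 each). Single libraries ran from 21.6- to 209-fold for Kcna3 and from 15.7- to 64.3-fold for Kcnn4. The mean ratio to Kcna3 was 27.3-fold without KI 526, and that to Kcnn4 was 25.3-fold per kilobase of the longest transcript.

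**Figure D1:**
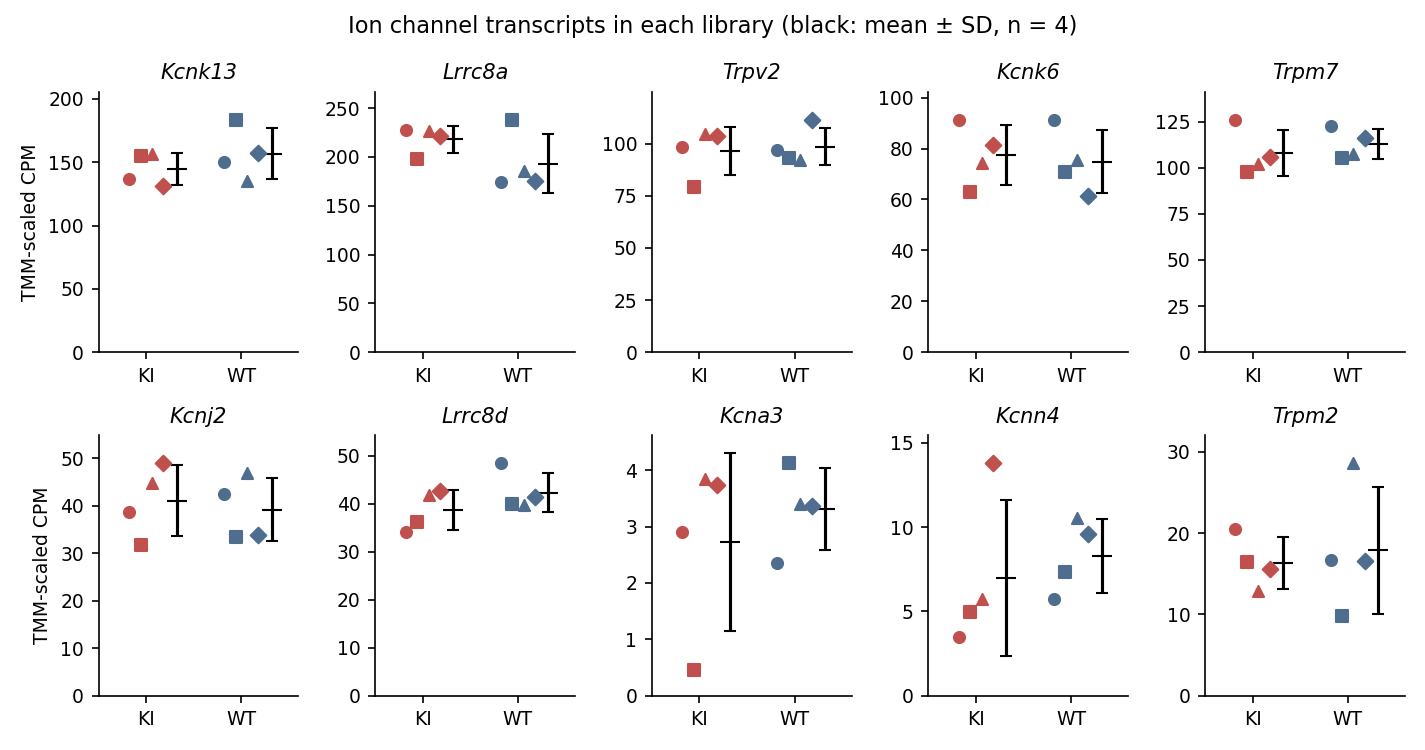
TMM-scaled CPM of each channel gene (vertical axis from 0) in the 4 KI libraries and the 4 WT libraries; points are libraries, with 1 symbol per library within a group, and the black bar is the mean ± SD. The groups overlap in all 10 genes, and the low Kcna3 point is KI 526 at 0.452 CPM.

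Taken as a family, the 77 pore-forming potassium channel genes of the K2P, Kir, Kv, KCa and sodium-activated groups were dominated by a few. Only 12 of them averaged at least 1 CPM. Kcnk13 held 52.4% ± 5.09 of their summed CPM per kilobase in KI and 53.4% ± 4.36 in WT (SD, n = 4 each), and between 47.0% and 59.0% in single libraries. Kcnk6 held 21.04% ± 3.24 in KI and 19.2% ± 3.30 in WT, and Kcnj2 8.45% ± 1.28 in KI and 7.69% ± 1.55 in WT. Kcna3 and Kcnn4 held 1.59% ± 0.895 and 1.53% ± 0.995 in KI, and 1.85% ± 0.353 and 1.74% ± 0.528 in WT. The most abundant of the other genes was Kcnd1, a subunit of the A-type channel Kv4.1, with 26.2 ± 8.69 CPM in KI and 29.2 ± 1.02 in WT. It ranged from 17.7 to 34.3 CPM in KI and only from 27.7 to 30.0 in WT. Kcnip3, whose product is an auxiliary subunit of Kv4 channels and also a calcium-binding transcription factor, averaged 41.7 ± 3.30 CPM in KI and 46.5 ± 6.13 in WT.

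**Figure D2:**
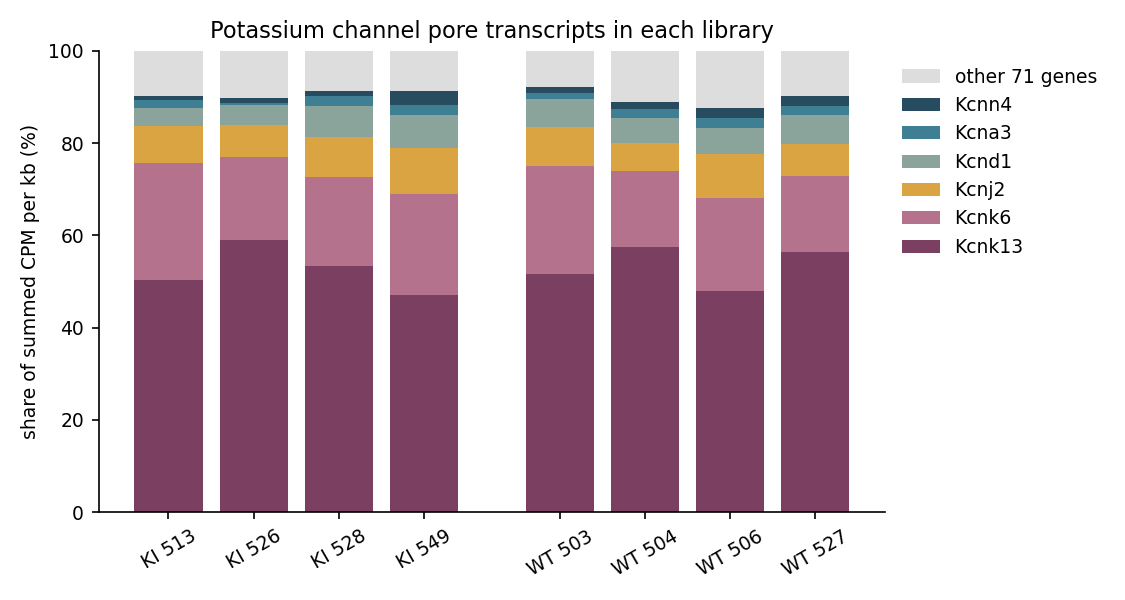
Share of the summed CPM per kilobase of 77 potassium channel pore genes (vertical axis, %) in each KI library (left) and WT library (right), stacked by gene. Kcnk13 takes between 47.0% and 59.0% of every bar, and Kcnk6 is the next in all 8.

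The TRP genes differed widely in level. Trpv2, a calcium-permeable channel common in macrophages (chromosome 11, 62574486 to 62600515, plus strand), had 98.5, 79.4, 105 and 103 CPM in the KI libraries and 96.8, 93.2, 92.2 and 111 CPM in the WT libraries. KI 526 was the lowest, and the other 7 lay between 92.2 and 111 CPM. Trpm7, a magnesium- and zinc-permeable channel fused to a kinase (chromosome 2, 126791565 to 126876230, minus strand), had 126, 97.5, 102 and 106 CPM in KI and 122, 105, 107 and 116 CPM in WT. It varied least of the TRP members, with an SD of 11.6% of the mean in KI and 7.05% in WT.

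Trpm2, which opens on ADP-ribose and oxidative stress (chromosome 10, 77907722 to 77970563, minus strand), was scarce and more variable. It had 20.5, 16.4, 12.8 and 15.6 CPM in the KI libraries, against 16.7, 9.77, 28.6 and 16.6 CPM in the WT libraries. WT 506 was the highest and WT 504 the lowest of all 8. Per kilobase, Trpv2 exceeded Trpm2 by 16.4-fold and Trpm7 exceeded it by 7.38-fold on average, each in 8 of 8 libraries (exact sign-flip permutation p = 0.00781 each). Of 28 TRP genes, 8 averaged at least 1 CPM, and Trpv2 held 44.9% ± 3.45 of the family's summed CPM per kilobase in KI and 44.6% ± 1.59 in WT. Mcoln1, the lysosomal TRP channel, averaged 61.9 ± 6.81 CPM in KI and 64.7 ± 9.42 in WT.

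Lrrc8a, the obligatory subunit of the volume-regulated anion channel (ENSMUSG00000007476, chromosome 2, 30237715 to 30263790, plus strand), drew more reads than the other 9 genes in every library. It stood at 227, 198, 226 and 221 CPM in KI 513, 526, 528 and 549, and at 174, 238, 186 and 175 CPM in WT 503, 504, 506 and 527. The KI libraries lay above 3 of the WT libraries, and WT 504 was the highest of all 8. Lrrc8d, a subunit known to favour the passage of larger organic solutes (chromosome 5, 105699969 to 105832436, plus strand), had 34.2, 36.2, 41.7 and 42.6 CPM in KI and 48.4, 39.9, 39.6 and 41.3 CPM in WT. The other subunits were lower still: Lrrc8c averaged 4.33 ± 0.583 CPM in KI and 5.90 ± 0.963 in WT, Lrrc8b 2.56 ± 2.46 in KI and 5.38 ± 2.998 in WT, and Lrrc8e 0.184 ± 0.237 in KI and 0.143 ± 0.163 in WT.

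The Lrrc8a level rests on part of its exons. Of its 4308 exonic bases, 2944 (68.3%), including all 2430 coding bases, are also exons of other gene models of the table, 2853 of them of Gm28035, a read-through model on the same strand. The counting command names no option for reads that overlap several genes, and reads of that kind were left out: all 1212 gene models without an unshared exonic base held 0 reads, against 30.1% of the other 53320. The counts of Lrrc8a therefore come from 1364 exonic bases outside its coding sequence, and Gm28035 itself held 402 reads over the 8 libraries. Per kilobase of unshared exon Lrrc8a averaged 151 CPM, in place of 47.7 per kilobase of all exons. Among the other members, shared bases made up at most 1.73% of the exons.

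The genes were ordered by mean CPM per kilobase of all exons over the 8 libraries (± SD, n = 8). Kcnk13 (48.4 ± 5.38) came first, then Lrrc8a (47.7 ± 5.91), Trpv2 (21.7 ± 2.15) and Kcnk6 (18.3 ± 2.73). Trpm7 (9.75 ± 0.891), Kcnj2 (7.36 ± 1.22) and Lrrc8d (3.22 ± 0.341) followed in that order. Last came Kcna3 (1.59 ± 0.619), Kcnn4 (1.496 ± 0.669) and Trpm2 (1.37 ± 0.448). Of the 9 neighbouring pairs in this order, 6 differed by an exact sign-flip permutation test within libraries after Benjamini-Hochberg adjustment. For Trpv2 above Kcnk6 the adjusted p was 0.0469, with Trpv2 higher in 6 of 8 libraries, and it was 0.0938 in the same exact test without KI 526, KI 528, KI 549, WT 504, WT 506 or WT 527. For the other 5 pairs that passed it was 0.0141 in the same exact test, with the first gene higher in 8 of 8 libraries. These pairs were Lrrc8a above Trpv2, Kcnk6 above Trpm7, Trpm7 above Kcnj2, Kcnj2 above Lrrc8d, and Lrrc8d above Kcna3. Per kilobase of all exons, Kcnk13 and Lrrc8a could not be separated (ratio 1.02, single libraries 0.824 to 1.24, exact permutation p = 0.75, adjusted 0.94). That length includes the 2944 shared bases of Lrrc8a, whose reads were left out, so it understates Lrrc8a. Kcnk13 was the higher of this pair in 1 of 4 KI libraries and in 4 of 4 WT libraries, and that contrast was not tested. Per unshared kilobase, the length that the Lrrc8a counts come from, Lrrc8a stood above Kcnk13 in 8 of 8 libraries. Kcnk13 was at 0.322 of it (exact permutation p = 0.00781). The Lrrc8a length is 1364 bases outside its coding sequence, and that of Kcnk13 is all 3112 exonic bases. The test covers the spread between libraries and not uneven coverage along a transcript, which was not measured. Nor did Kcna3 and Kcnn4 (adjusted exact permutation p = 1) or Kcnn4 and Trpm2 (0.94) differ beyond the spread between libraries. Kcnj2 and Lrrc8d, 2.27-fold apart per kilobase of summed exons, did not differ per kilobase of the longest transcript (7.36 and 7.06 CPM, Kcnj2 higher in 4 of 8 libraries, adjusted exact permutation p = 0.615). By that length Kcnk6 stood above Trpm7 by 1.19-fold in place of 1.87-fold, in 7 of 8 libraries (adjusted exact permutation p = 0.0281). Trpv2 stood above Kcnk6 by 1.43-fold in place of 1.19-fold, in 8 of 8 libraries (adjusted exact permutation p = 0.0176). Trpm2 came above Kcna3 and Kcnn4 when the length of the longest transcript was used. Its summed exons hold 12459 bases and its longest transcript 7274, and Lrrc8d has 12573 and 5736.

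**Figure D3:**
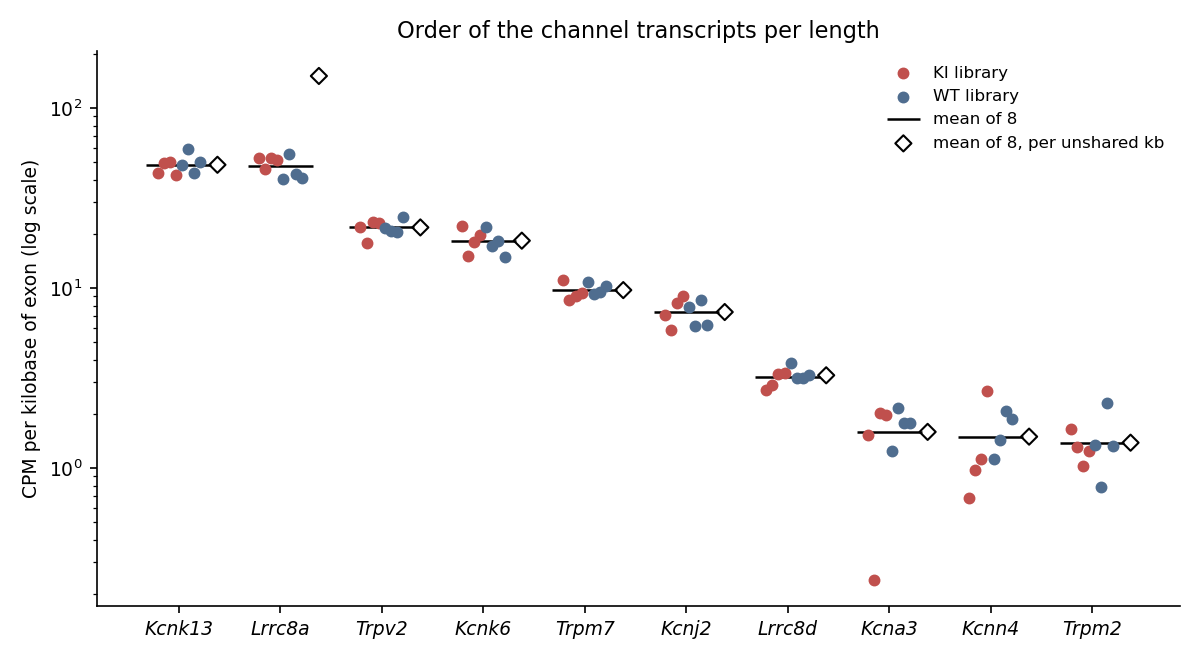
CPM per kilobase of exon (log axis) for each channel gene, ordered by the mean of the 8 libraries (line); points are KI and WT libraries, and open diamonds give the mean per kilobase of exon shared with no other gene model. The diamond leaves the line only for Lrrc8a (151 against 47.7), and Kcna3, Kcnn4 and Trpm2 overlap.

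Between KI and WT microglia, the contrast for which the study was set up, no channel of the 10 passed the test. The edgeR quasi-likelihood test, adjusted over all tested genes, called 0 of the 10 members and 0 of 17291 genes (0%). Without adjustment, 0 of the 10 members and 1347 of all genes (7.79%) had p under 0.05, of which 559 had more RNA (3.23%) and 788 less (4.56%) in KI. DESeq2 called 139 of the 10921 genes to which it gave an adjusted p (1.27%), and limma on log2(FPKM + 1) 1 of 17015 (0.00588%). Of the 17291 genes, edgeR's likelihood ratio test called 42 (0.243%) and limma-voom 0 (0%). No member was called by these tools, and DESeq2 gave no adjusted p for Kcna3. The groups overlapped in all 10 genes, where 855 of the tested genes (4.94%) had groups that did not overlap, 405 with KI above (2.34%) and 450 with KI below (2.6%). The members had a median log2 fold change of −0.09, with 3 above 0, and all tested genes one of 0.00.

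Among the 7 genes whose 95% interval lay within 1.5-fold either way, Lrrc8a had the largest estimate, with means of 218 ± 13.8 CPM in KI and 193 ± 30.3 in WT (SD, n = 4 each). On the log2 scale the fold change was 0.17 (SE 0.10, 95% interval −0.06 to 0.41, edgeR adjusted p = 0.748), and it was 0.29 without WT 504. For Kcnk13 the log2 fold change was −0.11 (SE 0.10, interval −0.34 to 0.11, edgeR adjusted p = 0.86), so the interval runs from 0.791- to 1.08-fold. It was −0.03 without WT 504. The other 5 of those 7 genes were Kcnk6 (0.833- to 1.29-fold), Kcnj2 (0.815 to 1.34), Trpv2 (0.834 to 1.15), Trpm7 (0.826 to 1.11) and Lrrc8d (0.767 to 1.09). Trpm2 was within 2-fold (0.585 to 1.42). The widest intervals of the 10 were those of Kcna3 (0.359- to 1.89-fold) and Kcnn4 (0.453- to 1.57-fold). Without KI 526 the log2 fold change of Kcna3 was 0.07 in place of −0.28, and without KI 549 that of Kcnn4 was −0.81 in place of −0.25.

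**Figure D4:**
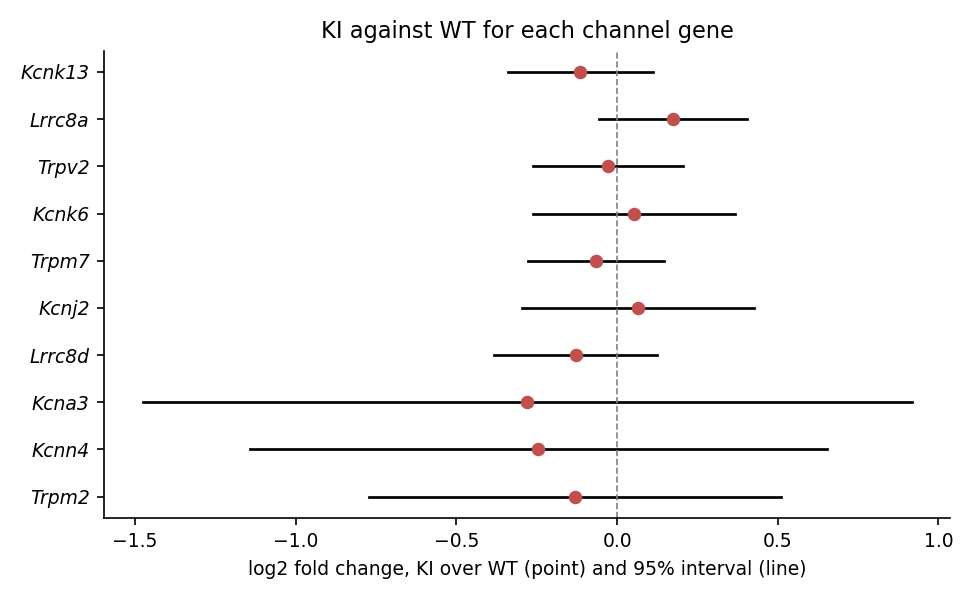
Log2 fold change of KI over WT (horizontal axis; point) with its 95% interval (line) from the edgeR quasi-likelihood fit of 4 KI and 4 WT libraries, for each channel gene. Every interval includes 0, and those of Kcna3 and Kcnn4 are the widest.

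Libraries of the same group differed among themselves, and the spread was not divided into parts within and between groups. Relative to its own mean over the 8 libraries, Kcnk13 ranged from −0.19 in KI 549 to 0.29 in WT 504 (log2), and Kcnk6 from −0.30 in WT 527 to 0.28 in KI 513. Trpm2 ranged from −0.75 in WT 504 to 0.80 in WT 506, within the WT group. KI 526 was below the mean for 8 of the 10 genes, and it was the lowest library for Kcnj2, Kcna3, Trpv2 and Trpm7. It also had the highest sum of neuronal markers of the 8 libraries (35.5 CPM) and the lowest sum of microglial markers (28500.1 CPM). Its sums of astrocyte (392 CPM) and oligodendrocyte markers (282 CPM) were each exceeded by 1 other library. Slc1a3 made up 341 CPM of that astrocyte sum. As a mean of centred log2 levels over astrocyte markers of at least 1 CPM, KI 526 was the highest library (0.64), ahead of WT 527 (0.50). The part of other cells in these values was not tested.

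**Figure D5:**
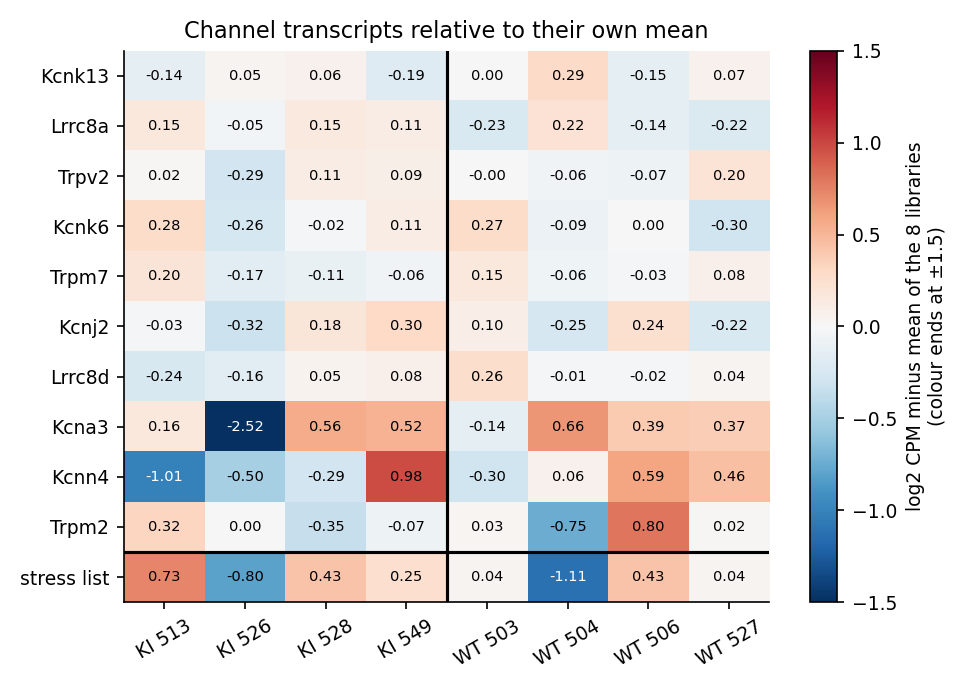
Log2 CPM of each channel gene minus its mean over the 8 libraries (colour and number), by KI library (left of the line) and WT library (right of it). The bottom row is the mean of the same measure, with 0.5 CPM added, over the immediate early and stress genes, and the lowest channel values are Kcna3 in KI 526 (−2.52) and Kcnn4 in KI 513 (−1.01).

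The members were also set beside the rest of their families, in 9 lists of 169 channel, auxiliary subunit and transporter genes, of which 168 were in the table and 72 were tested. By the edgeR quasi-likelihood test 0 of the 72 were called, and 4 had p under 0.05 before adjustment, with 1 of them above WT and 3 below. Of all tested genes 7.79% had p under 0.05 before adjustment in that test, 3.23% above WT and 4.56% below. The 72 genes had a median log2 fold change of −0.06, with 30 above 0. Kcnk12, the closest relative of Kcnk13, had 2.75, 2.88, 2.73 and 1.52 CPM in the KI libraries and 2.97, 4.25, 6.01 and 5.40 CPM in the WT libraries. All KI values lay below all WT values, and the log2 fold change was −0.91 (SE 0.32, edgeR unadjusted p = 0.0178, adjusted 0.573). Slc12a2, the sodium-potassium-chloride cotransporter NKCC1 that loads cells with chloride, averaged 306 ± 16.9 CPM in KI and 262 ± 23.6 in WT (log2 fold change 0.23, edgeR unadjusted p = 0.0138, adjusted 0.558). The groups overlapped by 1 library each, KI 549 (285) and WT 504 (286). Wnk4, a kinase that regulates such cotransporters, averaged 1.23 ± 0.22 CPM in KI and 2.16 ± 0.333 in WT without overlap (log2 fold change −0.81, edgeR unadjusted p = 0.0394, adjusted 0.618). Groups also lay apart for Lrrc8c (lower in KI, values above), for Kcna1 (0.819 ± 0.282 CPM in KI and 0.356 ± 0.189 in WT) and for Kcnc1, a Kv3 subunit at 0.127 ± 0.0774 CPM in KI and 0.654 ± 0.159 in WT (log2 fold change −2.33, edgeR unadjusted p = 0.00485, adjusted 0.507), which is named after its values were seen. Kcnc1 was near the counting limit in KI, at 0.0444 to 0.223 CPM. In KI 528 (0.0444) it was under the 0.0644 CPM that equal 3 reads there. Of the 72 genes, 1 lay wholly above WT and 4 wholly below, beside the 2.34% and 2.6% of all tested genes.

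Of 7 tested genes of other chloride channels and 19 of volume and potassium transporters, 0 were called by the edgeR quasi-likelihood test. Clic1, an intracellular chloride channel protein, averaged 523 ± 27.1 CPM in KI and 488 ± 17.7 in WT, and Ano6, a calcium-activated scramblase and channel, 63.5 ± 12.9 CPM in KI and 64.6 ± 11.2 in WT. Atp1b3, a beta subunit of the sodium pump, averaged 248 ± 19.8 CPM in KI and 263 ± 29.2 in WT. Of 10170 other genes with at least 5 mean CPM, those whose centred log2 levels over the 8 libraries were most like Kcnk13 were Cwc25, Pdik1l and Ntan1. Their root mean square differences from it were 0.0607, 0.0644 and 0.0676, where the median gene had 0.252. These were picked as the smallest of all. Kcnk13 itself had a root mean square of 0.146 around its mean, so a gene that varied little also came near it. Shared regulation was not tested.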

How the data were processed

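RNA of microglia from 8 mice, 4 KI and 4 WT by the mouse labels, was sequenced, 1 library each. Per the submitters' processing notes, reads were aligned to mm10 with STAR 2.7.5c and handled with SAMtools 1.9, featureCounts 2.0.3 and R 3.6.0. Per the file headers, the deposited counts are whole reads per gene over exons, taken from primary alignments without a strand setting or an option for reads on several genes, so a gene and its antisense partner cannot be told apart. The deposited FPKM values were made by the authors by a step not given in the sources used here, and served as an alternative. Of the table's columns, 8 were not used. Symbols and exons came from GENCODE M21 (54495 of 54532 identifiers matched).

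Counts were filtered with filterByExpr (minimum count 10, minimum total 15), scaled by TMM and tested, 4 KI against 4 WT, with edgeR 4.0.16's quasi-likelihood test in R 4.3.3 and Benjamini-Hochberg adjustment over 17291 genes at 0.05. Orders of genes were tested by exact sign-flip permutation of log2 ratios within libraries (two-sided), with scipy 1.17.1. Alternatives were DESeq2 1.42.0, limma 3.58.1 (voom, and log2(FPKM + 1)), the edgeR likelihood ratio test, other scaling, no filter, halved counts, other lengths and leaving out each library. A refit without both KI 526 and KI 549 was also run and was not planned. Libraries of a group differed beyond sampling noise (chi-square per degree of freedom 28.4 to 63.5 over 12 pairs), so none was a duplicate of another in its group. Pairs of a KI and a WT library were not compared in this way. All members are named. Of each list, up to 4 other genes with the highest CPM per kilobase and any with an unadjusted p under 0.05 and at least 1 CPM could be named, as could the 3 genes most like the member with the highest CPM per kilobase. Genes whose groups lay apart were added to these after their values were seen. The members and lists were chosen with earlier results of these data known. Some genes and sequences are not reported here.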

Additional observations from a re-analysis of the deposited data

Results flagged for a closer look

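None of the 10 members had a library beyond Dixon's 95% limit in either group (0 of 20 checks). With the other named genes added, 7 of 92 checks passed it, where chance flags about 1 in 20. Kcnk12 in KI 549 stood at 1.52 CPM, below the 2.73 to 2.88 CPM of the other KI libraries. Mcoln1 in KI 528 reached 72.0 CPM, against 57.8 to 59.7 in the other KI libraries. Wnk1 in KI 513 had 528 CPM, against 469 to 477 in the other KI libraries. Kcnk3, a K2P gene, was at 0.641 CPM in KI 526 and at 0 to 0.0444 in the other KI libraries. Lrrc52, an auxiliary subunit gene, was at 0.355 CPM in KI 528 and at 0.0188 to 0.0557 in the others. Among the WT libraries, WT 503 was low for Kcna1 (0.0732 CPM, others 0.429 to 0.476) and for Kcnd3 (0.0366 CPM, others 0.464 to 0.516).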

How the results depend on the processing

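Under 16 alternatives 0 members and 0 genes of the channel lists were called, with no adjusted p from DESeq2 for Kcna3 and some low list genes. Over all genes DESeq2 called 139, the edgeR likelihood ratio test 42 and limma on log2(FPKM + 1) 1, where the edgeR quasi-likelihood test called 0; the cause was not tested. The sign of the members' log2 fold changes turned in 11 of 160 refits, all for Kcnk6, Kcnj2, Kcna3, Trpv2, Trpm2 and Trpm7. For Trpm7 it turned only without KI 526 and KI 549 together, an unplanned refit (0.01). Leaving out single libraries kept Trpm7 between −0.15 and −0.02. Leaving out 1 library in turn gave log2 fold changes between −0.49 and 0.07 for Kcna3, −0.81 and −0.02 for Kcnn4, and −0.34 and 0.19 for Trpm2, and the smallest edgeR adjusted p of any member was 0.443 (Kcnn4 without KI 549). Chosen after the data were seen, length by unshared exon turned the log2 ratio of Kcnk13 over Lrrc8a to −1.64, in place of 0.02. Between 5 and 7 neighbouring pairs passed under the other lengths and left-out libraries, against 6. No paired analysis was possible because the mouse numbers differ between the groups. At this depth and with 4 mice a group, the 95% intervals of Kcna3 and Kcnn4 reached past 2-fold.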
